A study of Mus musculus with 6 samples.

Results

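The 9 genes described here encode immune receptors that mostly inhibit signalling (Pirb, Vsir, Cd72, Ceacam1, Siglecg, Siglece and Cd300a), the phosphatase SHP-1 (Ptpn6) and the adaptor DAP12 (Tyrobp). They were measured by 19 probe sets that the platform annotation assigns to a single gene, out of 45037 probe sets, and by 5 further ones listed with several genes. The cells were Ba/F3, an interleukin-3-dependent mouse line from BALB/c mice, labelled as leukemia cells. They had been transduced with a PAX5-KIDINS220 fusion under a Tet-on system, so that doxycycline switches it on, and were grown with supernatant of WEHI-3 cells. The Dox(+) group had 500 ng/mL doxycycline for 24 h and the Dox(-) group had none, with 3 Affymetrix arrays each. The question stated for the series was which pathways the fusion affects.

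Every group carried the fusion construct. No array of cells without the construct is among the samples analysed here, so an effect of doxycycline itself cannot be told apart from one of the fusion. Whether the transduced cells were a clone or a pool, and whether a group's 3 samples came from separate cultures, is not given, so the spread between arrays may be technical. By the start of the array code in their titles the arrays fell into an EA15 set (1 Dox(+) and 1 Dox(-) array sharing a code) and an EA20 set (2 of each, each with its own code, those of the Dox(+) arrays coming before those of the Dox(-) arrays). The labels do not say what the codes stand for. Within the EA20 set a difference that follows the order of the codes cannot be told apart from treatment. All arrays had been scaled to a trimmed mean signal of 500.003, and the median probe set had a signal between 56.3 and 65.6. Of the Pax5 probe sets, 1421765_at gave signals of 119 (EA15), 94.5 and 94.2 (EA20) on the Dox(+) arrays. On the Dox(-) arrays it gave 15.6 (EA15), 3.76 and 20.3 (EA20). Its fold change was 4.17 (95% interval 2.34 to 7.42, limma adjusted p 0.12). The other Pax5 probe set, 1454401_at, showed no such difference, with signals of 51.6 (EA15), 133 and 48.1 (EA20) on the Dox(+) arrays, against 23.9 (EA15), 92 and 81.4 (EA20) on the Dox(-) arrays and a fold change of 1.15 (95% interval 0.623 to 2.14). Whether either reads the transduced fusion is not known here. Of 8 genes listed for the identity of the line, 7 had signals of at least 296 on every array, among them the interleukin-3 receptor chains Il3ra and Csf2rb, and Kit had 68.1 or less.

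Inhibitory receptors carry short tyrosine motifs (ITIMs) in their cytoplasmic tails. When a Src-family kinase phosphorylates these motifs, they bind SHP-1 through its SH2 domains, and SHP-1 removes phosphate from nearby activating receptors and kinases. DAP12 works mainly on the activating side: its tyrosine motif (ITAM) recruits the kinase Syk and transmits activating signals of receptors that lack a signalling tail. B cells, myeloid cells and mast cells set their threshold of activation by the balance of these signals.

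The members were chosen by their Dox(+) against Dox(-) signal differences in an earlier look at these same arrays, with no threshold on values. Their doxycycline differences are therefore given as a description, with intervals. How many passed a threshold is printed beside the share of all probe sets that did, and supports nothing. Pirb and Vsir were higher on Dox(+) arrays, Pirb by a factor of about 1.78 and Vsir by 1.34 to 1.93 over its probe sets. Tyrobp was higher by 1.32 and Ptpn6 by 1.07 to 1.18. Cd72 and Ceacam1 were lower, Cd72 at 0.625 and Ceacam1, in its brightest probe set, at 0.747 of the Dox(-) level. Siglecg had lower signals close to the dim range, and Siglece and Cd300a were dim. In all, 8 of the 19 probe sets had a positive and 11 a negative difference, and 17 had the same sign in both array sets. All 8 Ceacam1 probe sets are among the 17. The members were chosen by differences within each set, and the share over all probe sets was not counted. The agreement of sign therefore supports nothing. The median log2 difference was -0.095 over the 19 and -0.0085 over all probe sets.

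**Figure D1:**
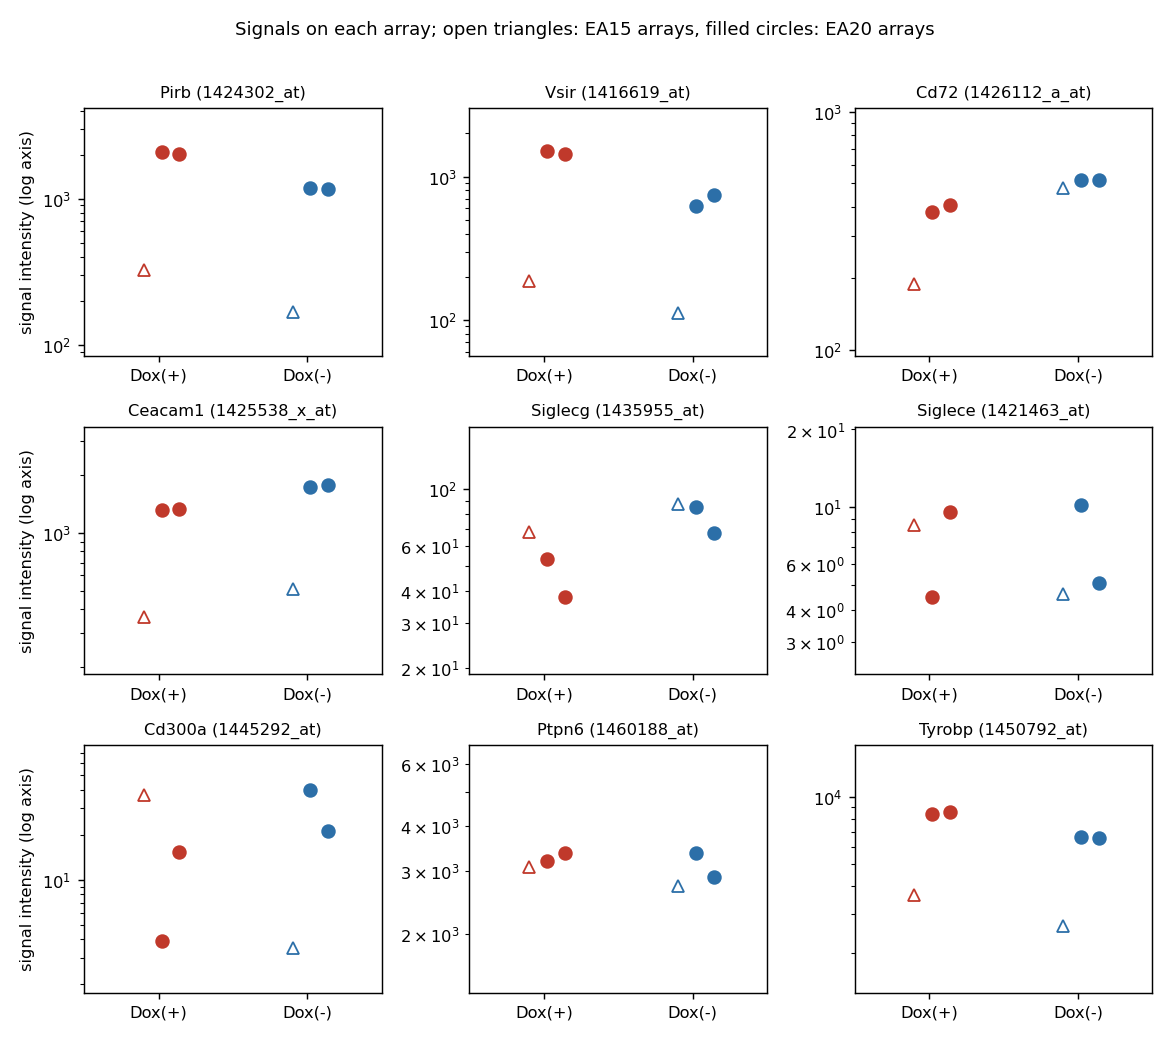
Signal intensity (log axis) of the brightest probe set of each gene on each array, Dox(+) left and Dox(-) right; open triangles are the EA15 arrays and filled circles the EA20 arrays. Within each set the Dox(+) signals of Pirb, Vsir and Tyrobp lie above the Dox(-) signals and those of Cd72, Ceacam1 and Siglecg below them, while the sets themselves lie far apart for Pirb, Vsir, Ceacam1 and Tyrobp.

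Fold changes here come from limma on log2(signal + 16) over all 6 arrays with the array set as a block, so they understate changes of dim probe sets. An adjusted p under 0.05 (Benjamini-Hochberg over 45037 probe sets) was passed by 2 member probe sets with a higher and 0 with a lower signal, Pirb 1424302_at and Vsir 1416619_at. Over all probe sets 26 (0.0577%) were called higher and 13 (0.0289%) lower, and since this contrast chose the members, nothing is read from their share. In the EA20 set alone, part of the same selecting contrast, the same 2 member probe sets were called, against 0.0999% of all probe sets higher and 0.0244% lower. Leaving out either EA15 array under the block leaves that EA20 contrast, so it is no further check. With no block the fit called 0 member probe sets, and 0 of all probe sets (1341 of them had an unadjusted p under 0.05). The 2 calls were also lost when any single EA20 array was left out, which left 0. Signals of all 3 Dox(+) arrays lay above all 3 Dox(-) arrays for 0 member probe sets and below them for 1, Cd72, against 3.75% and 3.99% of all probe sets.

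Among the receptors that were higher, Pirb encodes PIR-B, an ITIM-bearing receptor for MHC class I on B and myeloid cells and the mouse counterpart of human LILRB receptors. The platform annotation assigns the probe set 1424302_at to Pirb alone. This probe set had signals of 327 (EA15), 2073 and 2019.9 (EA20) on the Dox(+) arrays, against 168 (EA15), 1190.1 and 1158 (EA20) on the Dox(-) arrays. The Dox(+) array was the higher in the EA15 set and both Dox(+) arrays were the higher in the EA20 set, but the groups overlapped because every EA15 signal was below every EA20 signal. The fold change was 1.78 (95% interval 1.59 to 1.99), with 1.87 in the EA15 set and 1.73 in the EA20 set. In linear signal the groups averaged 1473 ± 993 on Dox(+) arrays and 839 ± 581 on Dox(-) arrays (SD, n = 3 each), and this spread is mostly that between the array sets.

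The activating PIR-A receptors are near-identical to PIR-B outside the tail, and 3 probe sets are listed with Pirb together with Pira1, Pira2 or further family members. They cannot assign a signal to a single gene. The brightest, 1420464_s_at, had signals of 344 (EA15), 3223 and 3086 (EA20) on the Dox(+) arrays, against 274 (EA15), 1917 and 1855 (EA20) on the Dox(-) arrays. Within each set the Dox(+) signals were again the higher, and the fold change was 1.51 (95% interval 1.31 to 1.75). For 1418809_at it was 1.78 (95% interval 1.19 to 2.67). The dimmest of them, 1452487_x_at, had ratios of 0.779 in the EA15 set and 1.6 in the EA20 set, so its sets pointed in opposite directions. Probe sequences were not used here, and whether 1424302_at also reads PIR-A genes was not tested.

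Vsir encodes VISTA, an immunoglobulin-family checkpoint receptor of myeloid and T cells whose tail lacks a classical ITIM. Its probe set 1416619_at had signals of 185 (EA15), 1498 and 1445 (EA20) on the Dox(+) arrays, against 112 (EA15), 621 and 739 (EA20) on the Dox(-) arrays. Within each set the Dox(+) arrays were the higher. The fold change was 1.93 (95% interval 1.61 to 2.33), with 1.57 in the EA15 set and 2.15 in the EA20 set. The other Vsir probe set, 1448407_at, had signals of 82.5 (EA15), 682 and 561 (EA20) on the Dox(+) arrays, against 52.4 (EA15), 446 and 504 (EA20) on the Dox(-) arrays. It pointed the same way, with a fold change of 1.34 (95% interval 1.09 to 1.65). The difference between the 2 probe sets in size was not tested.

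Cd72 encodes a lectin-like coreceptor of B cells that binds the semaphorin Sema4d and recruits SHP-1, and it is a known target of PAX5. Its only probe set, 1426112_a_at, had signals of 189 (EA15), 379 and 408 (EA20) on the Dox(+) arrays, against 478 (EA15), 516 and 517 (EA20) on the Dox(-) arrays. All Dox(+) signals were below all Dox(-) signals, and the lowest was the Dox(+) array of the EA15 set. The fold change was 0.625 (95% interval 0.48 to 0.815), with 0.414 in the EA15 set and 0.768 in the EA20 set. The groups averaged 325 ± 119 on Dox(+) arrays and 504 ± 22.1 on Dox(-) arrays (SD, n = 3 each), so the Dox(-) arrays were close together and the Dox(+) arrays were not.

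Ceacam1 encodes a cell adhesion receptor that binds its like on other cells and, in its long-tailed isoform, carries ITIMs. It had 8 probe sets, of which all 8 had a negative difference, in each array set as well. The platform annotation assigns all 8 to the same gene, so they are not 8 independent measurements. Probe sequences were not used here, and whether some also read a relative such as Ceacam2 was not tested. Their log2 differences ran from -1.23 to -0.091, with a median of -0.35. The brightest, 1425538_x_at, had signals of 365 (EA15), 1319.6 and 1330.4 (EA20) on the Dox(+) arrays, against 508 (EA15), 1727 and 1786 (EA20) on the Dox(-) arrays. Within each set the Dox(+) signals were the lower, and the set difference was larger than that. Its fold change was 0.747 (95% interval 0.672 to 0.83), with 0.727 in the EA15 set and 0.757 in the EA20 set. The probe set at -1.23, 1427712_at, was the dimmest of the 8, with signals of 4.18 (EA15), 33 and 5.34 (EA20) on the Dox(+) arrays, against 10.4 (EA15), 77.8 and 94.5 (EA20) on the Dox(-) arrays. The weakest difference was that of 1452532_x_at, with a fold change of 0.939 (95% interval 0.748 to 1.18). The 2 probe sets listed with Ceacam1 and Ceacam2 had fold changes of 0.734 (95% interval 0.658 to 0.817) for 1460682_s_at and 0.839 (95% interval 0.674 to 1.04) for 1422123_s_at. In the second the EA20 arrays gave a ratio of 1.

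**Figure D2:**
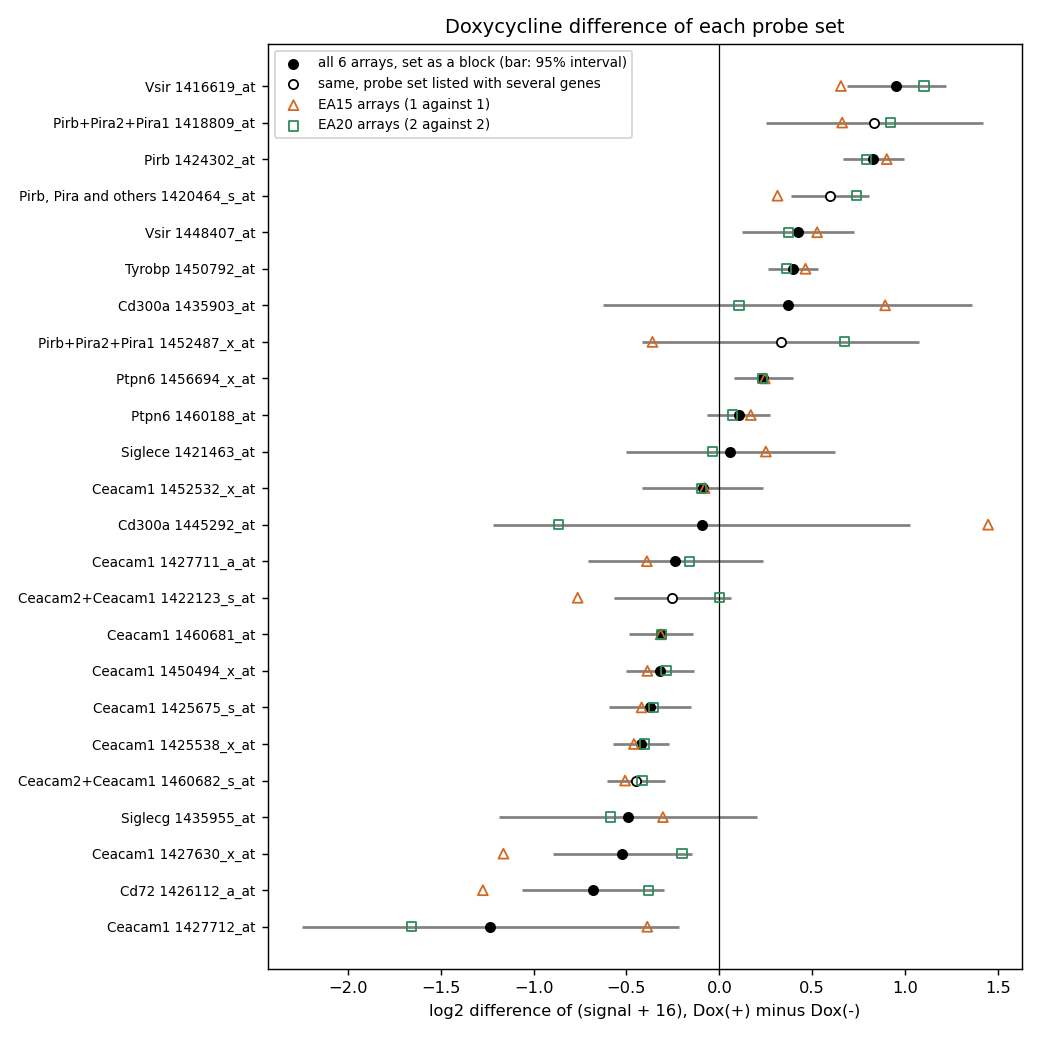
Log2 difference of (signal + 16), Dox(+) minus Dox(-), for the 24 probe sets that read the 9 genes; circles are the fit to all 6 arrays with its 95% interval (open where several genes are listed), triangles the EA15 set and squares the EA20 set. Vsir 1416619_at is the highest at 0.95 and Ceacam1 1427712_at the lowest at -1.23, and the widest intervals are those of probe sets that are dim or close to it.

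Siglecg encodes Siglec-G, a sialic acid-binding inhibitor of B cell receptor signalling. Its probe set 1435955_at had signals of 67.7 (EA15), 53.1 and 37.9 (EA20) on the Dox(+) arrays, against 87.4 (EA15), 85.1 and 67.1 (EA20) on the Dox(-) arrays. The Dox(+) signals were the lower within each set, while the groups overlapped narrowly. The fold change was 0.71 (95% interval 0.439 to 1.15), an interval that includes 1. Siglece encodes Siglec-E, a sialic acid-binding inhibitor of neutrophils and macrophages, and 1421463_at had signals between 4.5 and 10.2 on the 6 arrays. Such signals lie under the 40th percentile of the mean signals (36.3), the limit used here for dim probe sets, and the groups overlapped. Cd300a encodes an inhibitory receptor for phosphatidylserine and phosphatidylethanolamine on myeloid cells and mast cells. Its probe sets 1435903_at and 1445292_at were dim as well, with signals between 2.58 and 39.7. Their fold changes were 1.29 (95% interval 0.648 to 2.57) and 0.936 (95% interval 0.43 to 2.04), and neither shows a direction at these signals.

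Ptpn6, the gene of SHP-1 itself, had among the smallest differences of the 9. Its probe set 1460188_at had signals of 3070.2 (EA15), 3191 and 3359 (EA20) on the Dox(+) arrays, against 2729 (EA15), 3374 and 2881 (EA20) on the Dox(-) arrays. The groups overlapped, and the fold change was 1.07 (95% interval 0.956 to 1.21). The probe set 1456694_x_at had signals of 1200.3 (EA15), 1395 and 1534 (EA20) on the Dox(+) arrays, against 1011 (EA15), 1205 and 1284 (EA20) on the Dox(-) arrays. Its Dox(+) signals were the higher within each set and its fold change was 1.18 (95% interval 1.05 to 1.31). Tyrobp, the gene of DAP12, had signals of 3656 (EA15), 8396 and 8556 (EA20) on the Dox(+) arrays, against 2647 (EA15), 6616 and 6564 (EA20) on the Dox(-) arrays. Its Dox(+) signals were the higher within each set, with a fold change of 1.32 (95% interval 1.2 to 1.45) and ratios of 1.38 in the EA15 set and 1.29 in the EA20 set.

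To show the sequence around the starts of the receptor genes that were higher (Pirb and Vsir) and lower (Cd72 and Ceacam1), their promoters are printed from RefSeq, build GRCm38.p6, from 250 bases before to 50 after the start of transcription. The capitals mark matches, on either strand, to GAGGAAGT, the site preferred by the myeloid and B cell factor PU.1, and to its inner part GGAAGT, shared by many ETS factors.
Pirb, chr7:3720333-3720632, minus strand: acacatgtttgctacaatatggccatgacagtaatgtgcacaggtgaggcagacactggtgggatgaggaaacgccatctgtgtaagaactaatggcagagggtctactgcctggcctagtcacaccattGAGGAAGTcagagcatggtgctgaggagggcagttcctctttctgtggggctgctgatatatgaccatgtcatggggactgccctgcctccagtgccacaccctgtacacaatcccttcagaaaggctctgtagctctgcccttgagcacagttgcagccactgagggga
Vsir, chr10:60346601-60346900, plus strand: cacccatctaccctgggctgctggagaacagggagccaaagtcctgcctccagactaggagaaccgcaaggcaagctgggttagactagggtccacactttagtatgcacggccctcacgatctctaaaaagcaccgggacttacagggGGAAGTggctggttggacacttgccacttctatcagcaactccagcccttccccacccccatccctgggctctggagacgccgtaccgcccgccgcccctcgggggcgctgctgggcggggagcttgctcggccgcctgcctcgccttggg
Cd72, chr4:43454577-43454876, minus strand: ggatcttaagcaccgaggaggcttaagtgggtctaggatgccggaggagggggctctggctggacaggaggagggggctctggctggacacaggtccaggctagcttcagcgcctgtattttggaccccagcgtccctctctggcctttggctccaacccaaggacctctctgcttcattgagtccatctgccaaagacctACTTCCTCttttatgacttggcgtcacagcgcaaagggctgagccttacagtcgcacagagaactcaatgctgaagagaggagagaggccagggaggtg
Ceacam1, chr7:25477576-25477875, minus strand: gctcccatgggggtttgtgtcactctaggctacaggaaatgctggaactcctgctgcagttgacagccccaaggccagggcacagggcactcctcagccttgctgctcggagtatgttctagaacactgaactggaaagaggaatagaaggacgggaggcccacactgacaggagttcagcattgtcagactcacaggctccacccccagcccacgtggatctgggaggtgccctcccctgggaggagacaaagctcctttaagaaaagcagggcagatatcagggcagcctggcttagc

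Of the 9 genes, 8 had a promoter entry and Tyrobp had none, so nothing is known here of its letters. Siglecg had 2 of the 9 member windows. Of the 8 genes 4, Pirb, Ceacam1, Siglecg and Siglece, lie on chromosome 7. GAGGAAGT stood in 2 of the 9 member windows, against 3.2% of all 32851 windows. They were those of Pirb, from base -120 counted from the start, and of Cd72, on the opposite strand from base -49. GGAAGT, which every GAGGAAGT contains, stood in 4 of the 9, those of Pirb, Vsir, Cd72 and Ptpn6, against 23.8% of all. Differences between these shares were not tested. The GATA-type letters AGATAA and TGATAA, present in 11.2% and 9.05% of all windows, stood in none of the member windows. CAGGTG, an E-box, stood in those of Pirb and Ptpn6, against 20.2% of all, and is not in capitals. The GAGGAAGT letters thus stood before a gene that was higher and before a gene that was lower on Dox(+) arrays.

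The difference between the array sets was not used to choose the members. As each set held as many Dox(+) as Dox(-) arrays, its estimate is uncorrelated with that of the doxycycline difference. Both tests share the residual spread of each probe set, however, and 3 of the 19 probe sets were dim, against 40% of all. The shares of all probe sets below are therefore not a comparison free of the choice of members. Of the 19 probe sets, 12 were higher in the EA20 set and 0 lower (limma adjusted p under 0.05), while 13.4% of all probe sets were called higher and 11.4% lower, or 24.8% in all. The signals of the sets did not overlap for 12 of the 19, against 39.6% of all. Of the 12 called, 7 read Ceacam1, so the count is of 5 genes. Pirb was higher in the EA20 arrays 6.23-fold (95% interval 5.52 to 7.03, limma adjusted p 6.9e-08), Vsir 1416619_at 6.32-fold (95% interval 5.2 to 7.69, limma adjusted p 8e-07) and Tyrobp 2.4-fold (95% interval 2.17 to 2.65, limma adjusted p 1.1e-06). Ceacam1 1425538_x_at was higher 3.45-fold (95% interval 3.08 to 3.86, limma adjusted p 3e-07), and over its 8 probe sets the log2 difference ran from 1.31 to 2.27. Ptpn6 1456694_x_at was higher by a smaller factor of 1.22-fold (95% interval 1.09 to 1.37, limma adjusted p 0.018), and 1460188_at did not pass (adjusted p 0.27). Cd72 did not pass either, at 1.47-fold (95% interval 1.11 to 1.94, limma adjusted p 0.052), nor did Siglecg, Siglece or Cd300a.

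For Pirb, Vsir, Ceacam1 and Tyrobp the difference between the array sets was larger than that between Dox(+) and Dox(-) arrays. It had the same sign in the receptors that were higher with doxycycline and in Ceacam1, which was lower. In Cd72 the 2 differences were of similar size and opposite sign. What the sets differ in is not given. Of the 8 genes listed for the identity of the line, 7 were also higher in the EA20 set, with Il3ra at 2.57-fold and Csf2rb at 2.4-fold (limma adjusted p 7.6e-06 and 2.3e-06), and the part of such a wider shift in the members' levels was not tested.

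**Figure D3:**
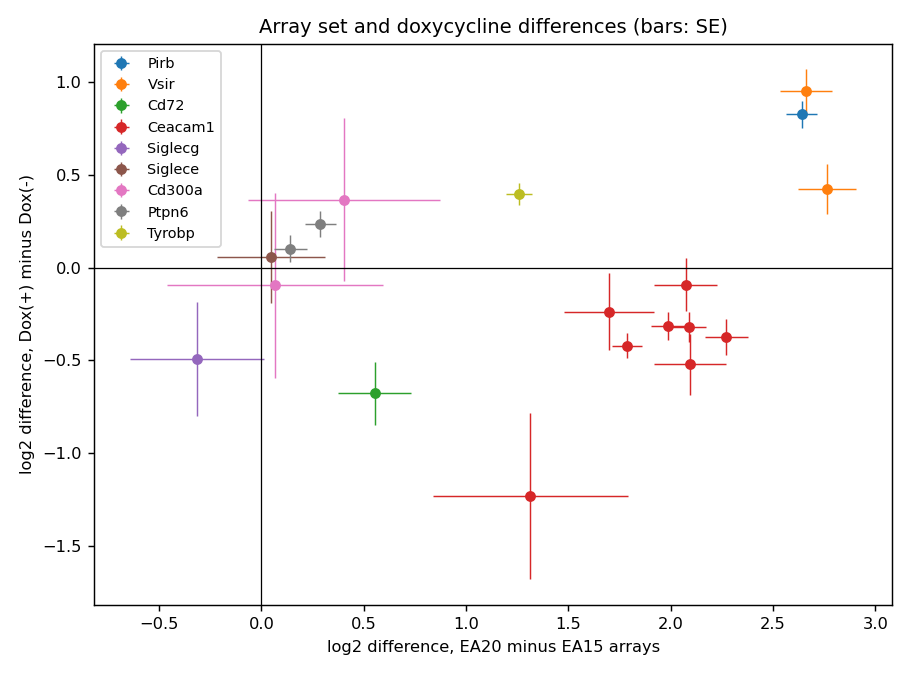
Log2 difference between array sets (EA20 minus EA15, horizontal) against the log2 difference Dox(+) minus Dox(-) (vertical) for the 19 probe sets, with SE bars, coloured by gene. Pirb and Vsir lie to the upper right, the 8 Ceacam1 probe sets to the lower right and Cd72 below the axis at 0.55.

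Whether the doxycycline difference was unlike in the 2 sets was tested as an interaction. It passed for 0 of the 19 probe sets and for 0 of all 45037, while 3 of the 19 and 2697 of all had an unadjusted p under 0.05. The members were chosen by the differences within each set that this test compares, so nothing is read from their counts. The difference in the EA20 set minus that in the EA15 set was 0.89 (SE 0.19, limma adjusted p 0.7) for Cd72, -0.11 (SE 0.14, limma adjusted p 0.96) for Pirb and 0.45 (SE 0.20, limma adjusted p 0.83) for Vsir 1416619_at, in log2 units. The 3 members were Cd72, Cd300a 1445292_at and Ceacam1 1427630_x_at, whose interaction had the smallest p of the 19, at 0.96 (SE 0.14, limma adjusted p 0.32). This Ceacam1 probe set had signals of 198 (EA15), 1293 and 1227 (EA20) on the Dox(+) arrays, against 463 (EA15), 1455 and 1447 (EA20) on the Dox(-) arrays. Its ratios were 0.447 in the EA15 set and 0.87 in the EA20 set. Without either EA15 array its log2 doxycycline difference was -0.20, against -0.52 over all 6 arrays, and that of Cd72 was -0.38, against -0.68. The test has few degrees of freedom and takes the lone arrays of the EA15 set to vary like those of the EA20 set.

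The other genes of the pathway were taken from 4 lists, drawn up with earlier results of these arrays known, with the brightest probe set for each gene. Among other inhibitory receptors, 29 of 36 had a probe set of their own. Of these 1 rose and 0 fell, against 0.104% and 0.0385% of 18193 genes. The median log2 difference of the list was 0.035, and that of all genes 0.0037. The gene that rose was Siglecf, an inhibitory lectin of eosinophils, which those earlier results already showed, so that it is no independent support. It had signals of 206 (EA15), 1526 and 1407 (EA20) on the Dox(+) arrays, against 105 (EA15), 809.5 and 679.8 (EA20) on the Dox(-) arrays. Its fold change of 1.92 (95% interval 1.64 to 2.23, limma adjusted p 0.019) was close to those of Pirb 1424302_at and Vsir 1416619_at. Its call is lost without the block and without any single EA20 array. Fcgr2b, the inhibitory Fc receptor of B and myeloid cells, had signals of 163 (EA15), 1206 and 1049 (EA20) on the Dox(+) arrays, against 336 (EA15), 1500.2 and 1411 (EA20) on the Dox(-) arrays. Its Dox(+) signals were the lower within each set, as were those of the brightest Ceacam1 probe set. The log2 difference of Fcgr2b was -0.57 (SE 0.13), and it did not pass. Havcr2 (TIM-3) was at -0.37 (SE 0.12) and Cd300lf, a relative of Cd300a, at 0.23 (SE 0.075). Neither passed, although all Dox(+) signals of Cd300lf were above all Dox(-) signals.

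Among kinases, phosphatases and adaptors that work at such tails beside SHP-1, 17 of 20 were measured and none passed, with 0 higher and 0 lower and a median of -0.015. Dok3, an adaptor that inhibits B cell and macrophage signalling, had signals of 539 (EA15), 1137 and 1070.2 (EA20) on the Dox(+) arrays, against 319.5 (EA15), 803 and 822 (EA20) on the Dox(-) arrays. Its Dox(+) signals were the higher within each set, with a log2 difference of 0.53 (SE 0.088) (limma adjusted p 0.098). Inppl1 (SHIP2) was at -0.34 (SE 0.16), the phosphatase Ptprc (CD45) at 0.14 (SE 0.064) and the adaptor Dok2 at -0.12 (SE 0.074). Ptpn11, the gene of the related phosphatase SHP-2, was at -0.011 (SE 0.063), and Inpp5d, that of the lipid phosphatase SHIP1, at 0.042 (SE 0.074), both named outside the rule for named genes because they share the receptors' tails with SHP-1.

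Among ITAM adaptors, their receptors and their kinases, 24 of 30 were measured, 0 were called higher and 0 lower, and the median was 0.025. Lat2, an adaptor downstream of ITAM receptors, was lower on average in each set, at -0.32 (SE 0.059), without passing. Trem2, a receptor that signals through DAP12, had signals of 88.1 (EA15), 90.8 and 68.8 (EA20) on the Dox(+) arrays, against 8.3 (EA15), 55.4 and 23.9 (EA20) on the Dox(-) arrays. All Dox(+) signals were above all Dox(-) signals, but the interval of its fold change, 2.39 (95% interval 1.25 to 4.56), was wide, and it did not pass. Fcgr3, an activating Fc receptor, was at 1.11 (SE 0.43) and the kinase Syk at 0.26 (SE 0.089). The Fc receptor gamma chain Fcer1g and Hcst (DAP10), 2 other adaptors that sit in the membrane beside their receptors, were at 0.011 (SE 0.078) and 0.12 (SE 0.072), and are likewise named outside that rule.

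Of ligands and their relatives, 15 of 16 were measured, 0 were called in either direction, and the median was -0.075. Sema4d, the ligand of CD72, was at -0.28 (SE 0.082), and did not pass. Its ratios were 0.697 in the EA15 set and 0.897 in the EA20 set. Selplg (PSGL-1), a partner reported for VISTA, was at 0.23 (SE 0.082), and Vsig8, another, was dim at -0.96 (SE 0.35). The MHC class I gene H2-D1 and B2m, whose products PIR-B binds, were at 0.12 (SE 0.063) and 0.046 (SE 0.07). H2-K1, another MHC class I gene of the list, was at -0.10 (SE 0.17). H2-D1, B2m and H2-K1 are named outside the rule.

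**Figure D4:**
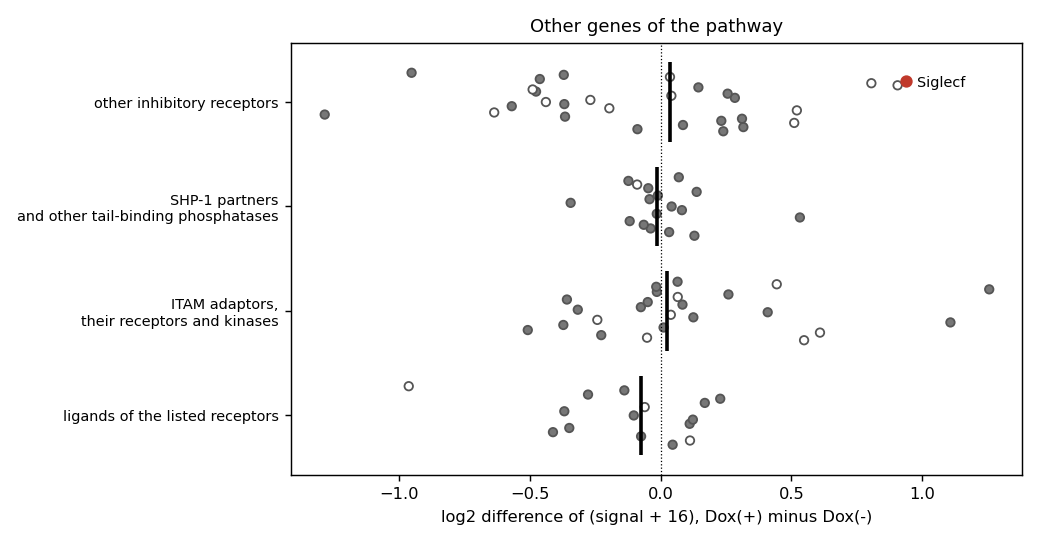
Log2 difference of (signal + 16), Dox(+) minus Dox(-), for each measured gene of the 4 lists; open points are dim genes, black bars the list medians and the red point the gene past the threshold. Siglecf, at 0.94, passed, and the 4 medians lie between -0.075 and 0.035.

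Several members are typical of macrophages, neutrophils, B cells or T and NK cells, whose markers were measured beside them. Of 9 macrophage and dendritic cell markers 8 were measured, none passed, and their summed signal was 1051 to 1719.9 on Dox(+) arrays and 1076 to 1699.7 on Dox(-) arrays. Of them Mrc1, Marco, Xcr1, Cd14 and Flt3 were dim, with at most 59.1, while Adgre1 had at least 712, Csf1r at least 114.5 and Itgax at least 74.5. Of 7 neutrophil markers 6 were measured and none passed, with sums of 4745 to 7074 on Dox(+) arrays and 4299.7 to 6935 on Dox(-) arrays. The sums do not show the single markers, of which 5 had a positive and 1 a negative doxycycline difference. Cxcr2 was higher on Dox(+) arrays within each set, with a fold change of 1.91 (95% interval 1.22 to 2.98). Ltf was lower within each set, at 0.702 (95% interval 0.565 to 0.873). The 5 of 7 measured mature B cell markers summed to 629 to 906 on Dox(+) arrays and 545 to 725 on Dox(-) arrays, and within each set the Dox(+) sums were the higher. The 6 of 8 T and NK cell markers summed to 329 to 691 on Dox(+) arrays and 414 to 699 on Dox(-) arrays. None of these passed either. Among the T and NK cell markers, Cd3e, Cd4 and Ncr1 were dim, with at most 36.4, while Nkg7 had at least 167 and Cd8a at least 59.5 on every array. Cd3g had 241 to 382 on the EA20 arrays and at most 36.0 on the EA15 arrays, a set difference of 9.6-fold (95% interval 6.31 to 14.6, limma adjusted p 1.7e-05). Among the mature B cell markers, Cr2, Fcer2a and Cd79a were dim, with at most 51.8, Ms4a1 had 28.3 to 60.0 and Cd79b at least 467. All Dox(+) signals of Ms4a1 were above all Dox(-) signals, as for 3.75% of all probe sets. Its signals were close to the dim limit, and its fold change of 1.4 had a 95% interval of 0.829 to 2.38, which includes 1. Of the neutrophil markers Camp was dim, with at most 41.9. Ngp had at least 877, S100a9 at least 749.6, Ltf at least 176, S100a8 at least 105 and Cxcr2 at least 34.4. Their set differences ran both ways, with 2 higher and 3 lower in the EA20 set (limma adjusted p under 0.05). Ngp was at 5.61-fold and Ltf at 2.17-fold, against S100a9 at 0.577-fold, Cxcr2 at 0.22-fold and S100a8 at 0.101-fold. The part of such cells or transcripts in the members' levels was not tested. The arrays read bulk RNA, so fewer cells with a transcript and less of it per cell cannot be told apart.

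For the brightest Pirb and Cd72 probe sets, the genes with the most similar pattern were found among 12309 genes above the dim limit, by Pearson correlation over the 6 arrays after centring each array set. For Pirb they were Rbms1 (r 0.9996, log2 difference 0.17), Ctnna1 (r 0.9988, log2 difference 0.27), Cela1 (r 0.9983, log2 difference 0.43). For Cd72 they were Pik3cg (r 0.9979, log2 difference -0.51), Eef2k (r 0.9977, log2 difference -0.20), Vamp4 (r 0.9974, log2 difference -0.22). The points share their arrays and the 2 groups, so a high r is a description of these 6 arrays only, and the genes alike in pattern had smaller differences than Pirb and Cd72.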

How the data were processed

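RNA of Dox(+) and Dox(-) Ba/F3 cells was measured on 3 Affymetrix mouse genome arrays per group. Each sample's source name gave its group; replicate numbers are the order of the samples and pair nothing. The signal intensities deposited by the authors are linear values per probe set, and the submitters' processing notes name Affymetrix Expression Console. The algorithm is not given in the sources used here. All arrays share 1 trimmed mean (2% cut at each end), which hides any change in total mRNA. Detection calls were not used here, and the number of arrays limits the precision.

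The table held 45101 probe sets, 64 of them controls. Of the rest, 34945 had 1 symbol in the platform annotation, 932 several and 9160 none, and 0 symbols changed when updated through Entrez identifiers. Members were taken by symbol from the first kind. Values were log2(signal + 16) with no filter. Each probe set was fitted in R 4.3.3 by limma 3.58.1, its prior following mean signal (eBayes, trend), with terms for doxycycline and array set, two-sided, Benjamini-Hochberg adjusted over 45037 probe sets, at 0.05. The interaction was an added term. The fits were tested on simulated data. The alternatives were no block, a random block, the EA20 and the EA15 set alone, quantile normalization, median centring, pseudocounts 1 and 64, no trend, a robust prior, no dim probe sets, 1 probe set per gene, the mean of a gene's probe sets, a threshold of 0.10 and leaving out each array. A search of protein motifs was planned and not run. Named genes were the members, the listed genes past the threshold and up to 4 per list by smallest p, and 3 genes most like Pirb and 3 most like Cd72; exceptions are marked. Members and lists were chosen with earlier results of these data known.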

Additional observations from a re-analysis of the deposited data

Results flagged for a closer look

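The Cd300a probe set 1445292_at moved in opposite directions in the array sets: signals were 37.1 on the Dox(+) and 3.49 on the Dox(-) array of the EA15 set, against 3.86 and 15.3 on the Dox(+) and 39.7 and 21.1 on the Dox(-) arrays of the EA20 set. Its log2 difference in the EA20 set minus that in the EA15 set was -2.31 (SE 0.76, limma adjusted p 0.83), and all of these signals are dim or close to it.

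The probe set 1452487_x_at, listed with Pirb, Pira1 and Pira2, did so as well, with 21.9 on the Dox(+) and 32.7 on the Dox(-) array of the EA15 set, and with both EA20 Dox(+) arrays above both EA20 Dox(-) arrays. The difference between its sets was 1.04 (SE 0.63, limma adjusted p 0.88). With 1 array per group in the EA15 set, a single array decides such a pattern.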

How the results depend on the processing

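Over all probe sets 39 were called for doxycycline, 2 of them members (Pirb 1424302_at and Vsir 1416619_at). There were 0 calls in all, and 0 of members, without a block, with the array set as a random block and without the mean-variance trend. Leaving out each array in turn gave 0 to 37 calls over all probe sets and 0 to 2 of members, with 0 without Dox(-) replicate 2, Dox(-) replicate 3, Dox(+) replicate 2 or Dox(+) replicate 3; for these fits the cause was not tested. A pseudocount of 1 gave 62 calls over all and 64 gave 7, with 1 member (Pirb). Without dim probe sets there were 110 calls, 4 of members (also Tyrobp and Ceacam1 1425538_x_at), and at an adjusted p under 0.10 there were 88, with the same 4. With the mean of a gene's probe sets there were 13 calls and 1 member gene, Pirb. The remaining alternatives gave 31 to 56 calls over all and 2 or 3 of members, the third being Tyrobp. Member counts for the array set were 11 to 14 and for the interaction 0 in each alternative run. Without the block the inhibitory receptor list had 0 calls, Siglecf included. The sign of the log2 difference was kept in every alternative by 16 of the 19 member probe sets. The exceptions were Siglece, Cd300a 1445292_at and, without Dox(+) replicate 3, Ceacam1 1452532_x_at (0.043). No paired analysis was possible because the labels give no replicate numbers; the EA15 arrays share a code and enter as part of the set block. Signals under the dim limit set how little can be said of Siglece and Cd300a.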
